A study of Mus musculus with 15 samples.

Results

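A set of 10 homeobox genes of the anterior neural plate, and of the epiblast from which it forms, was followed across RNA-seq libraries of mouse embryonic stem cells in which Activin signalling was stimulated, inhibited or left without addition. The genes were chosen by name as Hesx1, Six3, Lhx2, Lhx5, Rax, Lmx1b, Otx2, Otx1, Pou3f1 and Gbx2, which are 10 of the 24451 genes in the count table. Of these, 9 were among the 14600 genes with enough counts to be tested, and Lhx5 was not. Cells of the ES-R1 line, under 20 passages per the labels, were grown without serum in medium with N2 and B27 supplements and differentiated for 4 days. There were 5 groups of 3 libraries: control siRNA with SB, Vprbp siRNA with Activin A at 25 ng/ml, control siRNA with Activin A at 25 ng/ml, Vprbp siRNA with no addition, and control siRNA with no addition. SB is an inhibitor named SB431524 in the titles of the samples, while the text of the series has SB431542. Its dose is not stated by the labels, and no group combined it with Vprbp siRNA. All groups therefore share the line, the medium, the time point and an siRNA, and none is a culture without siRNA.

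Activin and Nodal signal through the type I receptors ALK4 and ALK7 to Smad2 and Smad3, and SB inhibits these receptors and ALK5. In the mouse embryo Nodal signalling maintains the epiblast and patterns the head organiser, and its inhibition in cultured pluripotent cells is used to favour neural fates. Homeobox genes encode transcription factors that bind DNA through a homeodomain. Otx2, Hesx1, Six3, Rax, Lhx2 and Lhx5 act in the early forebrain and eye field, Lmx1b in the midbrain and its boundary with the hindbrain, and Gbx2 on the hindbrain side of that boundary. Otx2, Pou3f1 and Gbx2 are also expressed by pluripotent cells. Vprbp, also called Dcaf1, recruits substrates to the CRL4 ubiquitin ligase.

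Libraries held 11.1 to 15.5 M counts in genes, and 3 counts, taken here as the lowest level that can be told from none, corresponded to 0.196 to 0.271 CPM in a library (counts scaled by library size, the unit of all levels here). Vprbp averaged 122 ± 8.91 CPM with Vprbp siRNA and 171 ± 3.60 CPM with control siRNA (SD, n = 3 each), a log2 difference of -0.49 ± 0.06 (standard error of the fit, adjusted p = 0.002), so transcript remained after knockdown. Lefty2, a direct target of the pathway, averaged 1.03 ± 0.294 CPM with SB, 197 ± 16.9 CPM with Activin and 42.7 ± 22.7 CPM with no addition. In all, 3 libraries stood apart from their partners. The third control siRNA library with no addition had 16.5 CPM of Lefty2, against 56.3 and 55.3 CPM in its partners. The third Vprbp siRNA library with no addition had 35.2 CPM, against 74.6 and 86.3 CPM in its partners. The first Vprbp siRNA library with Activin had a summed mesendoderm marker level of 223 CPM over 8 genes, against 52.1 and 44.6 CPM in its partners, and a summed trophoblast marker level of 386 CPM, against 229.9 and 186 CPM. The libraries are of whole cultures, so a change in the number of cells that express a gene and a change in RNA per cell cannot be told apart.

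Among markers of the cell types that such cultures could hold, the 9 pluripotency markers summed to 2456 to 2816 CPM with SB and 4099 to 4473 CPM with no addition, and 6 of the 9 fell. The 8 trophoblast markers summed to 283 to 334 CPM with SB and 187 to 211 CPM with no addition, and 4 of 7 tested rose. Of the 7 extraembryonic endoderm markers tested 2 rose, and that list summed to 259 to 316 CPM with SB and 222 to 259 CPM with no addition, with Afp at 0 counts in both groups. The 6 neural plate markers summed to 101 to 117 CPM with SB and 119 to 129 CPM with no addition, with 1 higher (Pax6) and 2 lower (Sox1 and Sox3). The mesendoderm list summed to 16.0 to 27.7 CPM with SB and 15.6 to 22.0 CPM with no addition, and none of 7 tested passed. The 5 lens and surface ectoderm markers stayed at or below 1.53 CPM in sum in every library, and none was tested. Fibroblast and neuron markers were lower with SB in 2 of 5 tested members each. Over all genes tested 11.2% were called higher and 11.3% lower with SB. The part of these cell type markers in the results below was not tested.

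Promoter windows are shown for the 3 genes that were higher with SB, and for Otx2, which was lower with SB than with Activin. Each window holds the 250 bases before the RefSeq transcription start on build GRCm38.p6, written 5′ to 3′ on the strand of the gene. Capitals mark the FoxH1-type motif TGTGGATT and the Smad-type motif CAGAC. FoxH1 is the DNA-binding partner of Smad2 and Smad3 in Nodal signalling. The windows lie at chr14:27000112-27000361 on the plus strand (Hesx1), chr17:85620584-85620833 on the plus strand (Six3), chr2:33641099-33641348 on the minus strand (Lmx1b) and chr14:48667645-48667894 on the minus strand (Otx2, the farthest upstream of its 4 listed starts). RefSeq and GENCODE place starts differently, so that the Hesx1, Six3 and Otx2 windows lie inside the GENCODE gene intervals given further on and the Lmx1b window just outside its own.
Hesx1: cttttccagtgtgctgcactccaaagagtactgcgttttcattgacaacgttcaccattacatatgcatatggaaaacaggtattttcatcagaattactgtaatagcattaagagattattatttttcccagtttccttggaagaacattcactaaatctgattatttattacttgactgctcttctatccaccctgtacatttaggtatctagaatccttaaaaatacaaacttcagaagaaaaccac
Six3: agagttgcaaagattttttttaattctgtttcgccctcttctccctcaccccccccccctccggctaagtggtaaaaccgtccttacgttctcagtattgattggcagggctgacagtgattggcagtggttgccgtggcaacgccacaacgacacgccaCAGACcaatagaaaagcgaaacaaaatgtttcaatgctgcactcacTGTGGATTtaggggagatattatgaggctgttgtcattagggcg
Lmx1b: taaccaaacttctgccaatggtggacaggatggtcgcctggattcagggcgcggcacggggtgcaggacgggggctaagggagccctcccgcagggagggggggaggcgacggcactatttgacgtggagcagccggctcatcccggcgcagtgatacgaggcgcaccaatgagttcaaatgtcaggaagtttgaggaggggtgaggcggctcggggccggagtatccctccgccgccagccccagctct
Otx2: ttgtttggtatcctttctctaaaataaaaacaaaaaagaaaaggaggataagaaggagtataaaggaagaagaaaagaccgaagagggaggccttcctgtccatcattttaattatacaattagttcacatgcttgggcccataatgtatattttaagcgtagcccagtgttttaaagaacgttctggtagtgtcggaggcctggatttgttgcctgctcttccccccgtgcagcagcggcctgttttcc

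The motif TGTGGATT, the motif CAGAC, the Otx-type homeodomain motif GGATTA and the POU octamer ATGCAAAT were searched on both strands. The Six3 window held TGTGGATT 44 bases and CAGAC 90 bases before the start. The windows printed for Hesx1, Lmx1b and Otx2 held none of the 4 motifs. Of the windows not printed, another of Otx2 held GGATTA 211 bases before its start. A window of Lhx2 held CAGAC 169 and 153 bases before its start. Among 32851 promoter windows of the same length, TGTGGATT was present in 0.718%, CAGAC in 42.2%, GGATTA in 6.25% and ATGCAAAT in 1.60%. These letters describe the windows and are not evidence of binding.

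With SB, the forebrain regulators Hesx1 and Six3 and the midbrain regulator Lmx1b rose relative to control siRNA with no addition. Pou3f1 and Gbx2, which are also expressed by pluripotent cells, fell. The test was edgeR's quasi-likelihood test over all 14600 genes with Benjamini-Hochberg adjustment, and a gene is said to rise or fall only where the adjusted p was under 0.05. Of the 9 members tested, 3 were called higher and 2 lower. Of all genes tested, 22.6% were called, 11.2% higher and 11.3% lower, and the median log2 difference of all genes was -0.0048. Six3 had no library with no addition at or above the filter's cutoff of 0.731 CPM, and only 1 library outside the SB group reached it, so it was tested through the group in which it is high.

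Hesx1 encodes a homeodomain repressor needed for forebrain and pituitary development, and lies at chr14:26994416-27002329 on the plus strand (GENCODE M21 on GRCm38). It had 23.2, 20.1 and 23.0 CPM in the SB libraries, against 1.56, 2.10 and 1.42 CPM in control siRNA libraries with no addition. Every SB library was above every other library of the series, in which the highest value was 2.55 CPM. The log2 difference from no addition was 3.70 ± 0.22 (adjusted p = 5.2e-10), a 13.0-fold higher level.

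Lmx1b is a LIM homeodomain factor of the midbrain-hindbrain boundary, of dopaminergic and serotonergic neurons and of the dorsal limb (chr2:33560965-33640511, minus strand). It had 17.9, 15.1 and 12.2 CPM with SB, against 0.543, 0.652 and 1.20 CPM with no addition. The SB libraries lay far above the rest of the series, where the highest value was 1.22 CPM. The log2 difference was 4.24 ± 0.35 (adjusted p = 6.4e-08), an 18.8-fold difference and the largest of the 9 members in this comparison.

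Six3 is a homeodomain factor needed for the rostral forebrain and the eye (chr17:85613608-85629302, plus strand). It had 3.41, 1.59 and 2.08 CPM with SB, against 0.407, 0.145 and 0.150 CPM with no addition, from 47, 22 and 29 counts and 6, 2 and 2 counts. The 2 sets of libraries did not overlap, but the log2 difference of 3.26 ± 1.05 passed only narrowly (adjusted p = 0.040). The call was lost when any of the 6 libraries compared was left out, with adjusted p of up to 0.13 over all alternatives, while the difference stayed between 2.90 and 3.92. The first Vprbp siRNA library with Activin, which stood apart above, held 3.43 CPM of Six3, as much as the highest SB library.

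Lhx2 and Rax were not called with SB. Lhx2, a LIM homeodomain factor of the optic vesicle and cortex (chr2:38339281-38369733, plus strand), had 5.59, 3.54 and 2.00 CPM with SB and 1.97, 2.25 and 3.89 CPM with no addition. These ranges overlapped, and the log2 difference was 0.46 ± 0.33 (adjusted p = 0.35). Rax, which starts eye formation (chr18:65928277-65939787, minus strand), had 0.363, 0.506 and 0.429 CPM with SB and 0.543, 1.01 and 0.824 CPM with no addition. Its ranges did not overlap, as was the case for 37.2% of all genes tested, and the log2 difference was -0.85 ± 0.48 (adjusted p = 0.22).

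Lhx5, a LIM homeodomain factor of the diencephalon (chr5:120431699-120441223, plus strand), was too low to test. Its counts summed over the 3 libraries of a group to 15 with SB, 11 with Vprbp siRNA and Activin, 5 with control siRNA and Activin, 30 with Vprbp siRNA and 18 with control siRNA. The exact Poisson 95% intervals of the group level were 0.202 to 0.595 CPM with SB and 0.255 to 0.679 CPM with control siRNA and no addition, and cover counting error only. At this depth no difference with SB was detectable. Otx1, the paralog of Otx2 that acts in the cortex and sense organs (chr11:21994764-22002897, minus strand), was similarly low, at 0.654, 0.506 and 1.00 CPM with SB and 0.678, 0.507 and 0.524 CPM with no addition. Its ranges overlapped, and its log2 difference was 0.33 ± 0.56 (adjusted p = 0.74).

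Otx2, which is required for the head and marks the primed epiblast, lies at chr14:48657677-48673819 on the minus strand. It had 87.5, 104 and 101 CPM with SB and 170.0, 157 and 54.3 CPM with no addition. The SB values lay inside the range of the libraries with no addition, of which the low one was the third library that stood apart. The log2 difference was -0.38 ± 0.33 (adjusted p = 0.47). Without that library it was -0.74 ± 0.13 (adjusted p = 0.0012), and without the 3 libraries that stood apart -0.74 ± 0.07 (adjusted p = 1.1e-09), so that Otx2 was called lower with SB in both. Both omissions were picked from these same data, and that library has the lowest Otx2 value of its group. These adjusted p-values can therefore be too small. Pou3f1, a POU homeodomain factor of the primed epiblast and later of glia and neurons (chr4:124656807-124660655, plus strand), had 24.1, 33.5 and 17.8 CPM with SB and 85.1, 84.7 and 50.1 CPM with no addition. Every SB library was below every library with no addition. Pou3f1 fell by 1.55 ± 0.27 on the log2 scale (adjusted p = 0.0019), to 0.343 of the level with no addition.

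Gbx2, a homeobox gene of the anterior hindbrain that is also expressed in naive pluripotent cells (chr1:89927956-89931179, minus strand), had 57.8, 80.0 and 53.0 CPM with SB and 111, 103 and 68.3 CPM with no addition. The groups overlapped through the second SB library and the third control siRNA library. Gbx2 fell by 0.56 ± 0.19 on the log2 scale (adjusted p = 0.046). That call did not hold under 4 of the 6 fits that left out a library, with adjusted p between 0.0034 and 0.19 over all alternatives. The calls of Hesx1, Lmx1b and Pou3f1 held in all 14 alternatives tried for each.

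**Figure D1:**
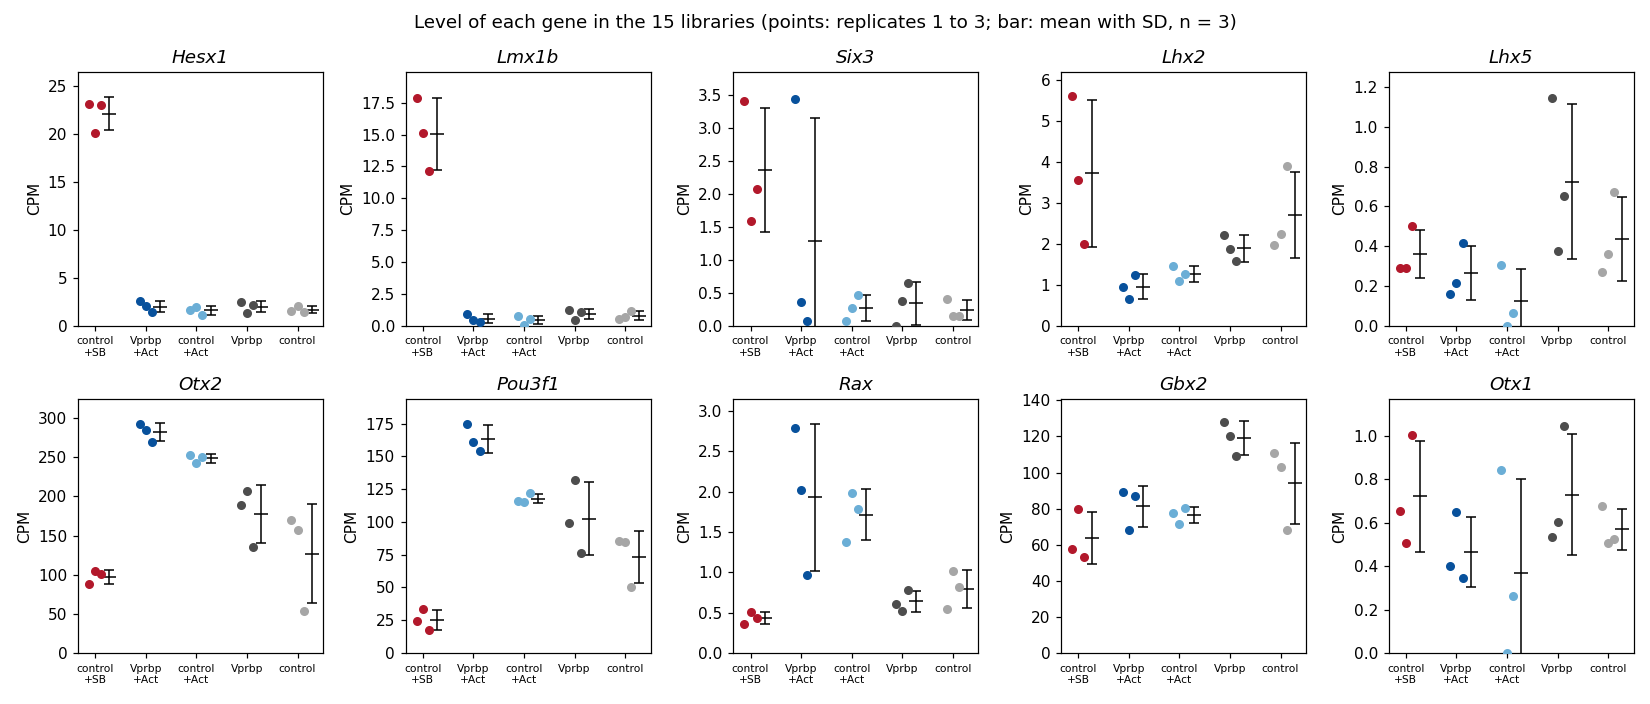
Level in CPM (y axis, linear, own scale per gene) of the 10 genes in each of 15 libraries, by group (x axis: control siRNA with SB, Vprbp siRNA with Activin, control siRNA with Activin, Vprbp siRNA, control siRNA). Points are replicates 1 to 3 and bars are means with SD (n = 3); Hesx1 and Lmx1b lie above 12 CPM in the SB libraries only, at means of 22.1 and 15.0 CPM, and Otx2 and Pou3f1 are lowest on average there.

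With Activin, no member passed the threshold relative to no addition in control siRNA cells, although 4 of them had ranges that did not overlap. Of all genes tested 4.82% were called, 2.95% higher and 1.87% lower, and 27.6% had ranges of 3 and 3 that did not overlap. The count of members called was 0 of 9 by edgeR and 0 by DESeq2. An unadjusted p under 0.05 was found for 4 members, Otx2, Lhx2, Rax and Pou3f1, and for 3012 of all 14600 genes. This comparison uses the same 3 libraries with no addition as the SB comparison, so the members' values in the 2 comparisons are not independent. Otx2 had 253, 242.5 and 249.7 CPM with Activin, against 170.0, 157 and 54.3 CPM with no addition. The Activin libraries lay close together and above all 3 others, with a log2 difference of 0.97 ± 0.33 (adjusted p = 0.12). When the third control siRNA library, an omission picked from these same data, was left out, the difference was 0.60 and was called.

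Pou3f1 had 116, 115 and 122 CPM with Activin, against 85.1, 84.7 and 50.1 CPM with no addition. The log2 difference was 0.68 ± 0.25 (adjusted p = 0.15). Rax had 1.38, 1.99 and 1.78 CPM with Activin, against 0.543, 1.01 and 0.824 CPM with no addition. Its log2 difference was 1.11 ± 0.39 (adjusted p = 0.11), from 67 counts with Activin and 33 counts with no addition over 3 libraries each. Lhx2 went the other way, at 1.45, 1.08 and 1.26 CPM with Activin and 1.97, 2.25 and 3.89 CPM with no addition. Its log2 difference was -1.08 ± 0.37 (adjusted p = 0.10). In each of these genes the groups did not overlap and the adjusted p missed the threshold.

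The other 5 tested members had ranges that overlapped. Gbx2 had 77.4, 71.7 and 80.4 CPM with Activin and differed by -0.30 ± 0.18 on the log2 scale (adjusted p = 0.39). Hesx1 had 1.68, 1.99 and 1.12 CPM with Activin and differed by -0.11 ± 0.29 (adjusted p = 0.87), while Lmx1b, at 0.765, 0.0903 and 0.529 CPM, differed by -0.71 ± 0.55 (adjusted p = 0.50). Hesx1 and Lmx1b, the genes with the largest differences under SB, were at or below 2.10 CPM in every library with no addition and control siRNA. Six3 and Otx1 gave log2 differences of 0.22 ± 1.49 and -0.58 ± 0.64, which leaves either sign within the standard error for both genes.

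In Vprbp siRNA cells the Activin response was measured in 6 further libraries that share none with the SB comparison. The spread was still estimated over all 15 libraries, those of the SB comparison included, so the standard errors and p-values are not independent of it. Rax rose there, with 2.79, 2.02 and 0.971 CPM with Activin and 0.611, 0.526 and 0.785 CPM without, a log2 difference of 1.55 ± 0.40 (adjusted p = 0.022). It was the only member called by edgeR, where 6.12% of all genes were called (3.65% higher and 2.47% lower), and the call held in 1 of 6 fits that left out a library. DESeq2 called Gbx2 as well, at -0.54 (adjusted p = 0.013). A fit of only the 6 libraries compared called Otx2 (adjusted p = 0.042) and Gbx2 (adjusted p = 0.020) and not Rax (adjusted p = 0.10). Without the 3 libraries that stood apart, Otx2 was called, at 0.49 ± 0.07 (adjusted p = 5.6e-05), and Rax was not, at 1.38 (adjusted p = 0.12). Otx2 had 293, 284.5 and 270.0 CPM with Activin and 189, 206 and 136 CPM without, with no overlap and a log2 difference of 0.67 ± 0.32 (adjusted p = 0.28). Without the third control siRNA library with no addition, which is outside this comparison, that difference was 0.68 ± 0.12 (adjusted p = 0.0034). Pou3f1 differed by 0.67 ± 0.25 (adjusted p = 0.15), Lhx2 by -0.97 ± 0.40 (adjusted p = 0.18) and Gbx2 by -0.55 ± 0.18 (adjusted p = 0.11), all 3 without overlap, as in 21.4% of all genes. Each of these 5 genes had the same sign as in control siRNA cells. The difference between the 2 Activin responses was tested directly and was called for 0 of 14600 genes by edgeR and by DESeq2, with 517 at an unadjusted p under 0.05, and for none of the members. The mesendoderm markers summed to 44.6 to 223 CPM with Activin and 20.4 to 26.4 CPM with no addition in Vprbp siRNA cells, where 2 of 7 rose (T and Eomes). In control siRNA cells they summed to 35.0 to 49.5 CPM with Activin and 15.6 to 22.0 CPM with no addition, without overlap, and none of the 7 was called. Their part in the Activin results was not tested.

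An average of the Activin response over both siRNAs, added after seeing the data, used 12 libraries and called 15.8% of all genes. It called 5 members. Rax was higher by 1.33 ± 0.28 on the log2 scale (adjusted p = 0.0025), Otx2 by 0.82 ± 0.23 (adjusted p = 0.035) and Pou3f1 by 0.68 ± 0.18 (adjusted p = 0.024). Lhx2 fell by 1.02 ± 0.28 (adjusted p = 0.014) and Gbx2 by 0.42 ± 0.13 (adjusted p = 0.045). The calls of Rax and Lhx2 held when any of the 12 libraries was left out. Those of Pou3f1, Otx2 and Gbx2 held in 9, 5 and 1 of the 12 such fits, and without the 3 libraries that stood apart the Pou3f1 difference was 0.46 (adjusted p = 0.082).

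**Figure D2:**
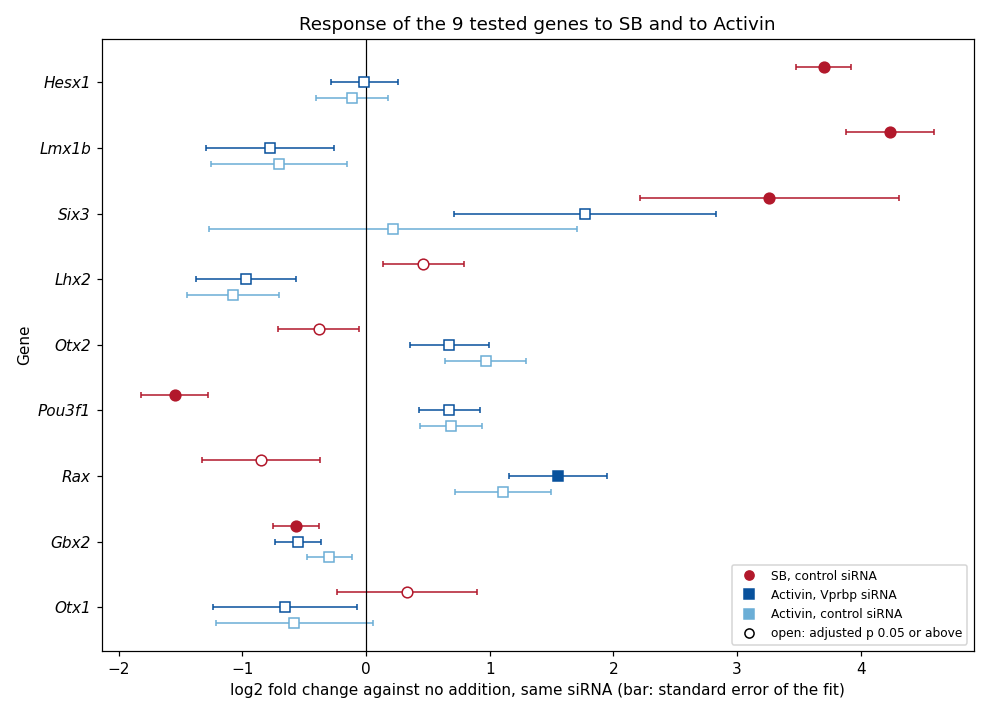
Log2 difference from no addition (x axis, bars show the standard error of the fit) of the 9 tested genes (y axis) with SB in control siRNA cells, with Activin in Vprbp siRNA cells and with Activin in control siRNA cells; filled symbols have an adjusted p under 0.05. Hesx1, Lmx1b and Six3 lie above 3 with SB, and the Activin differences of Hesx1 lie within their standard errors of 0.

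Set directly against each other, SB and Activin in control siRNA cells gave 7 called members of 9, where 38.0% of all genes were called (19.0% in each direction) and 54.9% had ranges that did not overlap. Hesx1, Lmx1b, Six3 and Lhx2 were higher with SB, and Pou3f1, Rax and Otx2 were lower. The log2 differences were 3.81 ± 0.23 for Hesx1 (adjusted p = 1.1e-10), 4.94 ± 0.39 for Lmx1b (adjusted p = 9.5e-09) and 3.04 ± 1.03 for Six3 (adjusted p = 0.034). No control siRNA library with Activin reached the filter's cutoff of 0.731 CPM for Six3. That gene was therefore tested here, too, through the group in which it is high. Lhx2 averaged 3.71 ± 1.80 CPM with SB and 1.26 ± 0.185 CPM with Activin (SD, n = 3 each), a difference of 1.54 ± 0.36 (adjusted p = 0.0021). Rax averaged 0.433 ± 0.0715 CPM with SB and 1.72 ± 0.311 CPM with Activin, a difference of -1.96 ± 0.43 (adjusted p = 0.0012). Lhx2 and Rax, both eye field genes, therefore differed in opposite directions. Otx2 averaged 97.5 ± 8.82 CPM with SB and 248.5 ± 5.40 CPM with Activin, with no overlap and a difference of -1.35 ± 0.33 (adjusted p = 0.0081). Pou3f1 averaged 25.1 ± 7.88 CPM with SB and 118 ± 3.70 CPM with Activin, a difference of -2.23 ± 0.27 (adjusted p = 7.7e-05). Gbx2 differed by -0.27 ± 0.19 (adjusted p = 0.29) and Otx1 by 0.91 ± 0.61 (adjusted p = 0.26), both with overlap. All calls but that of Six3 held in all 14 alternatives, and that of Six3 held in 8.

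Knockdown of Vprbp gave no called member in the main fit. The knockdown was partial, with Vprbp at 122 against 171 CPM without Activin and 138 against 179 CPM with Activin. With Activin the log2 difference of Vprbp was -0.37 ± 0.06 (adjusted p = 0.037). Effects of a stronger knockdown were not tested. Without Activin, edgeR called 6 of 14600 genes, or 0.0411%, while 1191 had an unadjusted p under 0.05. DESeq2 called 30 genes, and edgeR called 18 with the replicate number as a block. No member had an unadjusted p under 0.05. Pou3f1 had 99.2, 132 and 76.5 CPM with Vprbp siRNA and 85.1, 84.7 and 50.1 CPM with control siRNA, a log2 difference of 0.48 ± 0.25 (adjusted p = 0.67). Gbx2 had 128, 120.1 and 109 CPM with Vprbp siRNA and 111, 103 and 68.3 CPM with control siRNA, a difference of 0.34 ± 0.18 (adjusted p = 0.67). Otx2 differed by 0.48 ± 0.33 (adjusted p = 0.74). The ranges of all 3 overlapped between the groups, while each of the 3 was higher with Vprbp siRNA in 3 of 3 pairs of libraries with the same replicate number. With the replicate block the adjusted p was 0.46 for Pou3f1, 0.59 for Gbx2 and 0.63 for Otx2.

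With Activin, edgeR again called 6 genes, or 0.0411%, while 1532 had an unadjusted p under 0.05. DESeq2 called 76 genes. Pou3f1 had 175, 161 and 154 CPM with Vprbp siRNA and 116, 115 and 122 CPM with control siRNA. These ranges did not overlap, as in 17.4% of all genes, and the log2 difference was 0.47 ± 0.24 (adjusted p = 0.54), called only in a fit of the 6 libraries compared. Otx2 also did not overlap, at 293, 284.5 and 270.0 CPM with Vprbp siRNA and 253, 242.5 and 249.7 CPM with control siRNA, but its difference of 0.18 ± 0.32 was smaller than its standard error. Six3 had 3.43, 0.361 and 0.0693 CPM with Vprbp siRNA and 0.0765, 0.271 and 0.463 CPM with control siRNA. Its difference of 2.12 ± 1.13 came from 1 library, the first, and was -0.37 without it. In the average over both conditions 137 genes were called by edgeR, or 0.938% (0.664% higher and 0.274% lower), and 341 by DESeq2, while 2138 had an unadjusted p under 0.05. Among the members Pou3f1 was closest, with 0.48 ± 0.18 (unadjusted p = 0.021, adjusted p = 0.25), and its mean was higher with Vprbp siRNA under both conditions. Otx2 differed by 0.33 ± 0.23 (adjusted p = 0.55) in that average, and by 0.22 ± 0.05 (adjusted p = 0.010) without the 3 libraries that stood apart.

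Divided by the length of their GENCODE M21 exons, to set levels of different genes side by side, the 10 genes spanned a wide range. The annotation used for counting was not given, so the lengths that were counted may differ from these. With SB, Gbx2 had 29.2 ± 6.63 CPM per kilobase and Otx2 23.1 ± 2.09, which differed by less than the SD of Gbx2, and Hesx1 followed at 17.7 ± 1.39 (SD, n = 3). Hesx1 thus stood above Pou3f1, at 6.53 ± 2.05 CPM per kilobase, and Lmx1b was next at 3.08 ± 0.585, while Six3 reached only 0.433 ± 0.173. With Activin in control siRNA cells Otx2 was first, at 58.9 ± 1.28 CPM per kilobase, before Gbx2 at 35.1 ± 2.04 and Pou3f1 at 30.6 ± 0.948. With no addition and control siRNA, Gbx2 had 43.2 ± 10.4 CPM per kilobase, Otx2 30.1 ± 15.0 and Pou3f1 19.0 ± 5.22. The place of Otx2 in this order lay within the spread of the replicates, while Gbx2 was above Pou3f1 by more than either SD. The other 7 genes then lay between 0.0429 for Six3 and 1.36 for Hesx1. The means of Otx2 across the 5 groups ran, low to high, from SB through control siRNA and Vprbp siRNA to control siRNA with Activin and Vprbp siRNA with Activin. The SB group overlapped with control siRNA and that group with Vprbp siRNA, while the 2 Activin groups overlapped with no other. Pou3f1 followed the same order of means, with every SB library below all others and every Vprbp siRNA library with Activin above all others.

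Across the 15 libraries, Pearson's r of log2 CPM was 0.935 between Hesx1 and Lmx1b, 0.843 between Otx2 and Pou3f1 and 0.724 between Rax and Pou3f1. It was lowest between Lmx1b and Pou3f1, at -0.885, and between Otx2 and Lhx2, at -0.858. These values are descriptions over 15 libraries that share the same groups. Otx2, Pou3f1 and Gbx2 were all lowest within their group in the third control siRNA library, at 54.3, 50.1 and 68.3 CPM, and in the third Vprbp siRNA library, at 136, 76.5 and 109 CPM. Those are also the libraries with the least Lefty2 among their partners, and the part of Lefty2 or of any difference between these cultures was not tested.

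**Figure D3:**
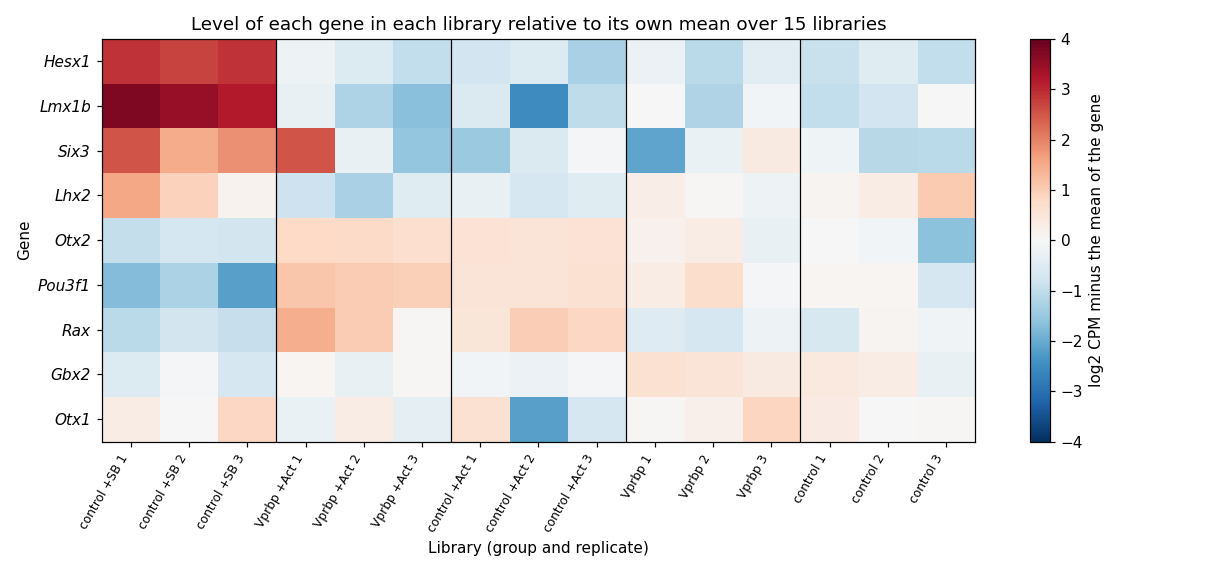
Log2 CPM of the 9 tested genes (rows) in each of 15 libraries (columns, by group and replicate) minus the mean of the gene over all libraries (colour scale in log2 units, red above and blue below the mean). Hesx1, Lmx1b and Six3 are red in the 3 SB libraries, Six3 is red also in the first Vprbp siRNA library with Activin, and Otx2 and Pou3f1 are red in all 6 Activin libraries.

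Among genes whose log2 CPM averaged 1 or more, the pattern most like that of Hesx1 over the 15 libraries was that of Pfn2 (r = 0.985), which averaged 52.5 CPM with SB, 14.5 CPM with Activin and 14.9 CPM with no addition in control siRNA cells, followed by Arid3b (r = 0.975). Lmx1b was most like Fzd1 (r = 0.976), a Wnt receptor at 21.1 CPM with SB, 2.66 CPM with Activin and 2.94 CPM with no addition, and Ephx2 (r = 0.970). Pou3f1 was most like Zic2 (r = 0.990) and Fgf5 (r = 0.988), Fgf5 being a growth factor of the primed epiblast at 1.44 CPM with SB, 35.0 CPM with Activin and 10.4 CPM with no addition. Otx2 was most like Mbtd1 (r = 0.980) and Mycn (r = 0.980). Rax was most like Igfbp3 (r = 0.927) and Tmem30b (r = 0.909), and Lhx2 most like Adamtsl5 (r = 0.946) and Pcsk7 (r = 0.911). The nearest patterns to Six3, Dsc2 and Mmp15, reached r of 0.921 and 0.904, and those to Gbx2, Atg16l1 and Dyrk3, 0.911 and 0.900. For Otx1, with at most 16 counts in a library, Mtrf1l (r = 0.829) and Atp6v1c1 (r = 0.805) were nearest.

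Noncoding genes on the opposite strand beside Lmx1b and Six3 were also followed. C130021I20Rik, which starts head to head with Lmx1b and overlaps its promoter window, had 14.5, 10.3 and 8.59 CPM with SB and 0.339, 0.435 and 1.50 CPM with no addition. The groups did not overlap, and the log2 difference was 3.89 ± 0.60 (adjusted p = 0.00036). Six3os1, which overlaps Six3, had 1.09, 1.23 and 0.787 CPM with SB and 0.271, 0 and 0.150 CPM with no addition, a difference of 2.78 ± 0.70 (adjusted p = 0.0064). In the first Vprbp siRNA library with Activin Six3os1 was at 0.718 CPM and C130021I20Rik at 1.76 CPM, each the highest of its group. No library outside the SB group reached the filter's cutoff of 0.731 CPM for Six3os1, so it was tested through the group in which it is high. The labels do not state whether the counting used strand, so reads of a gene and of its antisense partner cannot be told apart where they overlap. Both noncoding genes were named after their values were seen.

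**Figure D4:**
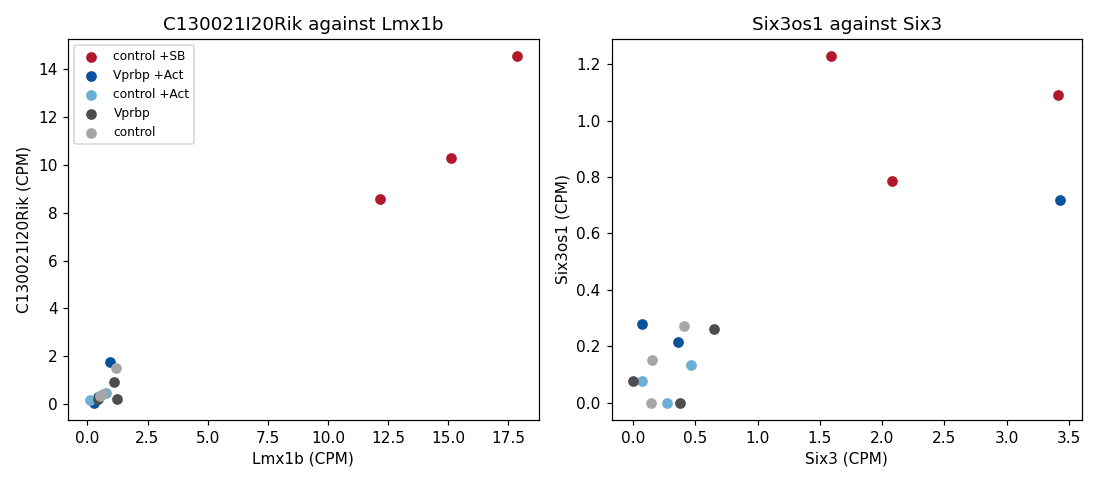
Level in CPM of C130021I20Rik against Lmx1b (left) and of Six3os1 against Six3 (right), with 1 point per library, coloured by group. The 3 SB libraries hold all values of Lmx1b above 12 CPM and of C130021I20Rik above 8 CPM, and the Six3 value of 3.43 CPM outside them belongs to the first Vprbp siRNA library with Activin.

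Other genes of the same territories were followed as lists of textbook genes. Among 18 further forebrain and eye field genes, of which 12 were tested, 5 rose and 1 fell with SB, with a median log2 difference of 0.24, beside 11.2% and 11.3% and a median of -0.0048 over all genes. Nkx2-1, which specifies the ventral forebrain, had 1.78 ± 1.11 CPM with SB and 0.0476 ± 0.0413 CPM with no addition (adjusted p = 9e-05), and passed the filter only through the SB libraries. Sfrp1, a secreted Wnt inhibitor, had 174 ± 4.11 CPM with SB and 118 ± 3.42 CPM with no addition (log2 difference 0.56 ± 0.09, adjusted p = 0.00024). Pax6, a paired homeodomain factor of the eye and forebrain, rose with SB, at 43.3 ± 2.44 CPM against 26.0 ± 2.37 CPM, a difference of 0.73 ± 0.13 (adjusted p = 0.00037). It fell with Activin, to 12.8 ± 2.08 CPM, by 1.03 ± 0.14 (adjusted p = 0.00032). With Activin in control siRNA cells none of the 12 rose and 2 fell, Pax6 and Hmx1, with a median of -0.12, beside 2.95% and 1.87% of all genes. Hmx1 was low, and reached the filter's cutoff of 0.731 CPM in 2 control siRNA libraries with no addition and in none with Activin.

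Among 22 midbrain-hindbrain and posterior neural genes, 20 were tested, and 4 rose and 8 fell with SB, beside 11.2% and 11.3% of all genes, with a median of -0.53. The fibroblast growth factors Fgf17 and Fgf15, expressed at the midbrain-hindbrain boundary and in the neural tube, fell by 1.99 ± 0.12 (adjusted p = 5.6e-10) and 3.25 ± 0.34 (adjusted p = 1.3e-05). En2, a homeobox gene of the midbrain and anterior hindbrain, fell by 1.44 ± 0.22 (adjusted p = 5.8e-05). These directions are opposite to that of Lmx1b, which works in the same territory, while the 4 genes of the list that rose had its direction. With Activin 3 of the 20 rose and 4 fell, beside 2.95% and 1.87% of all genes, with a median of -0.62, and the TALE homeobox genes Meis1 and Meis2 fell by 1.71 ± 0.18 (adjusted p = 1.8e-05) and 0.98 ± 0.14 (adjusted p = 0.00057). Meis1 was the only gene of this list called with Vprbp siRNA and no addition, at 11.6 ± 0.914 CPM against 6.48 ± 1.12 CPM with control siRNA, a difference of 0.83 ± 0.14 (adjusted p = 0.028).

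Of 21 pan-neural progenitor genes, 18 were tested, and 5 rose and 7 fell with SB, with a median of -0.02, again beside 11.2% and 11.3% of all genes. Sox1, an early marker of the neural plate, fell by 0.88 ± 0.13 (adjusted p = 5.3e-05) and Zic5 by 0.69 ± 0.12 (adjusted p = 0.00017), while Zfp521, which promotes neural conversion, rose by 0.95 ± 0.14 (adjusted p = 5.6e-05). With Activin 1 rose and 3 fell, beside 2.95% and 1.87% of all genes, with a median of -0.10, among them Sox21 by 1.31 ± 0.19 (adjusted p = 0.00053) and Sox1 by 0.67 ± 0.12 (adjusted p = 0.0049).

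All 18 further genes of the primed epiblast were tested, of which Sox3, Zic2 and Cdh2 stand also in the pan-neural list. With SB 2 rose and 11 fell (11.2% and 11.3% of all genes), with a median of -0.84, among them Utf1 by 0.91 ± 0.08 (adjusted p = 2.1e-07), the ligand Nodal by 0.99 ± 0.10 (adjusted p = 1.2e-06) and Etv4 by 0.85 ± 0.10 (adjusted p = 2.1e-06). With Activin 4 rose and none fell (2.95% and 1.87% of all genes), with a median of 0.31, among them the DNA methyltransferase Dnmt3b, by 0.90 ± 0.12 (adjusted p = 0.00057), and Nodal, by 0.58 ± 0.10 (adjusted p = 0.0024). In the average of the knockdown over both conditions 6 of these 18 rose and none fell, where 0.938% of all genes were called, with Epha4 at 0.33 ± 0.05 (adjusted p = 0.0086) and Dnmt3b at 0.47 ± 0.08 (adjusted p = 0.019). Of 14 genes of the head organiser and anterior visceral endoderm, all tested, 2 rose and 1 fell with SB, with a median of 0.21. Shisa2 and the Wnt inhibitor Sfrp2 rose by 1.40 ± 0.12 (adjusted p = 6.4e-08) and 1.29 ± 0.12 (adjusted p = 2.8e-07), and the Nodal inhibitor Lefty1 fell by 5.70 ± 0.63 (adjusted p = 9.2e-05). With Activin 1 of the 14, Lefty1, rose, by 1.64 ± 0.39 (adjusted p = 0.041).

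**Figure D5:**
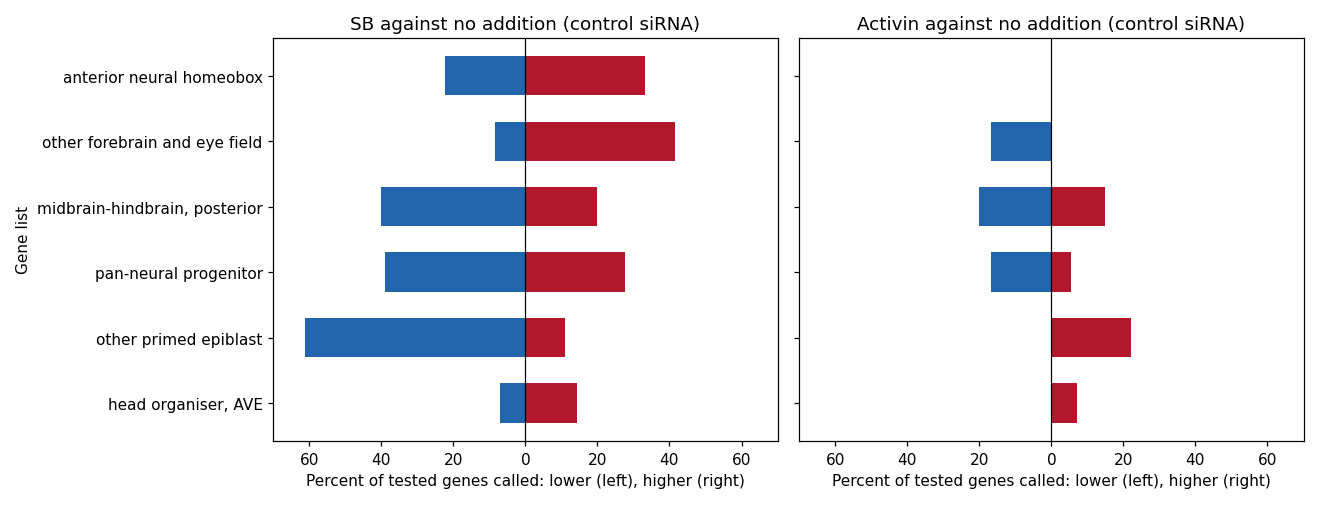
Share of the tested genes of each list called lower (left of 0) and higher (right of 0), in percent, with SB (left panel) and with Activin (right panel), each against no addition in control siRNA cells. The other primed epiblast genes hold 11 lower of 18 with SB, and the other forebrain and eye field genes 5 higher of 12, beside 11.3% lower and 11.2% higher over all genes.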

How the data were processed

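RNA of 15 libraries was counted per gene symbol by the authors, and the deposited values are raw counts without normalization. Per the submitters' processing notes, HTSeq 0.6.1p1 and build mm10 were used. Aligner, annotation and strand setting were not given in the sources used here. The table has 24456 lines, of which 5 HTSeq tallies entered neither library sizes nor tests. They held 10.3% to 16.0% of fragments outside genes and 0.678% to 0.722% ambiguous. Groups and replicate numbers come from the sample titles, and columns were matched through the sample number in the description.

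Genes passing filterByExpr (minimum count 10) were scaled by TMM and tested with edgeR 4.0.16 (limma 3.58.1, R 4.3.3), robust quasi-likelihood fit of all 15 libraries with 1 mean per group and Benjamini-Hochberg adjustment over 14600 genes at 0.05. CPM use the scaled library sizes. Values after ± are SD for levels and standard errors of the fit for log2 differences. Whether replicates were separate cultures is not in the labels, so the p-values rest on the spread between these libraries alone, and that spread may be technical. Every replicate pair differed by more than sampling noise (chi-square per degree of freedom 2.73 to 15.7).

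The members, lists and tests were chosen with earlier results of these data known, and lists are described by counts and medians with no set test. Named genes were the members, Vprbp and Lefty2, the 2 genes most like each member, and up to 3 list genes with the smallest p with SB and 2 in other comparisons. Alternatives were RLE factors or library totals, no filter or 1 CPM in 3 libraries, DESeq2 1.42.0, a replicate block, only the libraries compared, and libraries left out. Single libraries were left out of the groups compared. The omission of the third control siRNA library is also given for Activin in Vprbp siRNA cells. The 3 libraries that stood apart were picked from these same data, so adjusted p-values without any or all of them can be too small. As a check of pairing by replicate number, each library's deviations from its group mean were correlated. Between the control and Vprbp siRNA groups with no addition r was 0.12, 0.20 and 0.37 at numbers 1 to 3, and no other pair of groups exceeded 0.1 at all 3, so the block is given beside that comparison. Positions are from GENCODE M21 on GRCm38, and promoters from RefSeq on GRCm38.p6. Windows of 6 members were searched. Otx1, Lhx5 and Pou3f1 had no entry, and Rax was not searched.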

Additional observations from a re-analysis of the deposited data

How the results depend on the processing

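In this section, a range for fits with a library left out covers the libraries of the groups compared. Members called with SB numbered 5 and were 3 with no filter on low counts, 6 without the 3 libraries that stood apart (Otx2 gained a call), and 3 to 5 when a library was left out. The SB calls of Hesx1, Lmx1b and Pou3f1 held in all 14 alternatives, that of Six3 in 7 and that of Gbx2 in 6. For Activin in control siRNA cells 703 genes were called, and 1058 with the replicate block, 2314 in the average over both siRNAs and 265 to 721 with a library left out. Its members called were 0, and 5 in that average, 1 (Otx2) without the 3 libraries that stood apart and 0 to 1 with a library left out. For Activin in Vprbp siRNA cells the 894 genes became 372 with only the libraries compared and 352 to 1167 with a library left out, and the 1 member called became 2 with DESeq2 (Rax and Gbx2), 2 with only the libraries compared (Otx2 and Gbx2), 1 (Otx2 in place of Rax) without the 3 libraries and 0 to 1 with a compared library left out. Leaving out the third control siRNA library with no addition, which is outside that comparison, called Rax, Otx2 and Gbx2 (adjusted p = 0.019, 0.0034 and 0.029). The knockdown counts moved most. Without Activin the 6 genes became 10 with no filter, 18 with the replicate block, 30 with DESeq2, 1 with only the libraries compared, 76 without the 3 libraries that stood apart and 2 to 37 with a library left out. With Activin the 6 became 15, 51, 76, 68 and 205 under the same settings and 0 to 21 with a library left out, and members called became 1 (Pou3f1) with only the libraries compared. In the average of the knockdown the 137 became 273 with the replicate block, 341 with DESeq2, 76 with only the libraries compared, 475 without the 3 libraries and 24 to 391 with a library left out, and members called became 1 (Otx2) without the 3 libraries. The difference of Activin responses became 1 gene without them. Six3 with Vprbp siRNA and Activin, at 2.12, lay between -0.37 (without the first such library) and 2.84 with a library left out, and was -0.37 without the 3 libraries. The causes of these changes were not tested. Values were tallied only for members with an unadjusted p under 0.1 in the main fit, with the Activin average over both siRNAs included. Over these 385 recomputed member values, 344 kept direction and call, 11 gained a call, 28 lost it and 2 turned sign. The calls that Otx2 gained with SB and in the average of the knockdown are outside this tally. So are the calls that Otx2 and Gbx2 gained with Activin in Vprbp siRNA cells without the third control siRNA library. The replicate block changed no member call but that of Gbx2 with SB.

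Rax, Six3, Otx1 and Lhx5 had at most 47 counts in a library, which limits the precision of their values, and intervals cover counting error only.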
